A study of Mus musculus with 101 samples.

Results

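The 10 genes described here, Rorb, Scnn1a, Whrn, Cux2, Rspo1, Nr4a2, Ntn5, Chrna5, Fezf2 and Foxp2, mark layers and areas of the excitatory neurons of the mouse cortex. They were taken by name from the 24056 genes of the deposited expression files, and were set apart because their levels in prefrontal cortex (PFC) and visual cortex (VCX) were already known from these libraries. The PFC and VCX values of the 10 genes are therefore given as a description, without a test. All 10 were found in every file.

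The study measured polyadenylated RNA by RNA-seq in cortex of C57 mice that had received an intraperitoneal injection of lipopolysaccharide (LPS, 5 mg/kg), a bacterial cell wall component that sets off systemic inflammation, or of phosphate-buffered saline (PBS). PFC and VCX were homogenised 1, 2 or 14 days later, and RNA was taken from ribosomes precipitated through a haemagglutinin (HA) tag carried by astrocytes (IP) and from the cleared lysate before precipitation (input). Another 7 libraries came from whole PFC tissue at day 1, all from female mice. The groups used below are LPS and PBS, each at days 1, 2 and 14, each in PFC and VCX, and each as IP and as input, together with LPS and PBS whole tissue. The 101 libraries form 26 groups, 23 of 4 libraries and 3 of 3 (day 2 LPS PFC IP, day 2 LPS VCX input and LPS whole tissue), from 46 male and 55 female samples. Mice with the HA tag are implied for the LPS and the PBS arm alike, but the promoter or Cre line that places the tag in astrocytes, the age of the mice and whether an IP and an input library came from the same animal are not given in the sources used here. The 3 days were sequenced as separate projects per the labels, so day and sequencing project cannot be told apart and days are set side by side without a test. The labels do not say which libraries came from separate animals, so p-values measure the spread between libraries.

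Neurons of the neocortex are stacked in layers that differ in their inputs and targets. The upper layers send axons to other cortical areas, layer 4 receives sensory input from the thalamus and is thick in primary sensory areas and thin or lacking in the rodent PFC, layer 5 sends axons out of the cortex, and layer 6 feeds back to the thalamus. Transcription factors set up these identities in development and stay on in the adult. Among the 10 genes, Rorb encodes a retinoid-related orphan nuclear receptor of layer 4 whose transcripts are also found in mouse cortical astrocytes, Cux2 a homeobox factor of the upper layers, Fezf2 a zinc-finger factor needed for subcerebral neurons of layer 5, Foxp2 a forkhead factor of layer 6 and Nr4a2 an orphan nuclear receptor of deep layer 6, claustrum and subplate-derived cells that is also an immediate early gene. Scnn1a encodes a subunit of the epithelial sodium channel and is used as a layer 4 marker, Chrna5 encodes the alpha5 subunit of nicotinic acetylcholine receptors and is known from layer 6, and Whrn encodes whirlin, a scaffold protein of hair cells and photoreceptors. Rspo1 and Ntn5 encode secreted proteins, an R-spondin that strengthens Wnt signalling and a member of the netrin family.

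In GENCODE vM21 on mm10, all 10 are protein-coding, and the deposited values count reads over each gene as a whole. Rorb lies on chromosome 19 from 18930605 to 19111196 on the minus strand, and Fezf2 on chromosome 14 from 12342094 to 12348189 on the minus strand. Nr4a2 lies on chromosome 2 from 57106830 to 57124003 on the minus strand, and Cux2 on chromosome 5 from 121856366 to 122050102 on the minus strand. Whrn, from 63414910 to 63495991 on the minus strand, and Rspo1, from 124986430 to 125009099 on the plus strand, are both on chromosome 4. Scnn1a, from 125320659 to 125344943, and Foxp2, from 14901349 to 15441977, are both on the plus strand of chromosome 6. Ntn5 lies on chromosome 7 from 45684022 to 45694556 and Chrna5 on chromosome 9 from 54980880 to 55007779, both on the plus strand. The one overlap of exons was between Ntn5 and Sec1, which share 519 exon bases on opposite strands. Whether the counting used strand is not given in the sources used here, so reads in those 519 bases cannot be assigned to one of them. The median of Sec1 was 0.217 FPKM in 24 PFC input libraries and 1.16 FPKM in 23 VCX input libraries, against 0.937 FPKM in PFC and 6.74 FPKM in VCX for Ntn5. FPKM, a read count scaled by transcript length and library size, is a level per length, which allows levels of different genes to be set side by side.

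Promoters of 8 of the 10 genes, from 250 bases before to 50 bases after an annotated start, were found in RefSeq's table for GRCm38.p6. Those of Nr4a2 and Ntn5 are shown because these 2 genes had the largest log2 differences between PFC and VCX averaged over days, and both promoters of Rorb because it was the one gene that was higher in IP than in input. Capitals mark TGACG, the core of the cAMP response element, and AGGTCA, the core site that nuclear receptors bind, on either strand, so that they appear as CGTCA and TGACCT where the reverse strand holds them.
Nr4a2, minus strand, chr2:57123954-57124253: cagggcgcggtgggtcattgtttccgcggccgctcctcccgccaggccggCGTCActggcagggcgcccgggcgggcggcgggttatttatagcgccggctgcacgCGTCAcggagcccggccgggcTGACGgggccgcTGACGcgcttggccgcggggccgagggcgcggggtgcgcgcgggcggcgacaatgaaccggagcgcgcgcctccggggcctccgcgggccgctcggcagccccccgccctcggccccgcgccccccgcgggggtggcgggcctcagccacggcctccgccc
Ntn5, plus strand, chr7:45683772-45684071: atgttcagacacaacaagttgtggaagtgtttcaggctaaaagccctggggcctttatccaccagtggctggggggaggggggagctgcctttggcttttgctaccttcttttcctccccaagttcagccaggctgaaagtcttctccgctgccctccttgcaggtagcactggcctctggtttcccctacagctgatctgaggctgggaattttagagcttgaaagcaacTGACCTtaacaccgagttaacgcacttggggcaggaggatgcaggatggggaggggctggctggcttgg
Rorb, distal start, minus strand, chr19:19111147-19111446: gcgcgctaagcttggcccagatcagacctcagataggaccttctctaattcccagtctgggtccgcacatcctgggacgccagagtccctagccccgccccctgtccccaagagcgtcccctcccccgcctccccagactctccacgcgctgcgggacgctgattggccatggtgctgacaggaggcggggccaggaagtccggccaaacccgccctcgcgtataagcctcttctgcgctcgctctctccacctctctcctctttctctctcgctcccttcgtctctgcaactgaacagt
Rorb, proximal start, minus strand, chr19:19001068-19001367: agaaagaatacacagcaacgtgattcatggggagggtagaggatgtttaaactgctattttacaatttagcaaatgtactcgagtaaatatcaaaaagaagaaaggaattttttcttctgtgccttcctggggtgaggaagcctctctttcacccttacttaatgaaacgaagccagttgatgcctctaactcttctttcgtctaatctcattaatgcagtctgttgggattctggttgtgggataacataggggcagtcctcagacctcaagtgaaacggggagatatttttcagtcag
The Nr4a2 window held 4 matches to TGACG and none to the full element TGACGTCA. The Ntn5 window held 1 match to AGGTCA, and neither Rorb window held any of the 3 motifs. Of all 32851 promoters in the table, 20.8% held TGACG, 16.3% held AGGTCA and 1.79% held TGACGTCA, so that matches of the short motifs are common. GC content was 81.7% in the Nr4a2 window, 55.3% in the Ntn5 window, and 63.7% and 41.0% in the distal and proximal Rorb windows. The deposited values sum over both Rorb starts and cannot tell them apart.

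The total of reads assigned to genes lay between 4210410 and 72936819 a library, with a median of 40787524, and the lowest total was in day 14 input. A whole-tissue library labelled PBS, replicate 3, stood apart: its summed level of 8 acute LPS-response genes was 259 FPKM, against 34.8, 40.5 and 41.7 FPKM in the other PBS whole-tissue libraries and 350 to 433 FPKM in the LPS ones. Its title and file name also disagree, as do those of PBS replicate 4, so its label is in doubt, and results that use it are given with and without it. A pair of later IP libraries were also high on that list within their LPS groups, day 14 PFC replicate 1 at 483 FPKM (the others 194 to 239) and day 14 VCX replicate 2 at 620 FPKM (the others 296 to 313). The astrocyte label of the IP held: all 10 astrocyte genes were higher in IP than in input in PBS mice, with list medians of 4.38 to 4.58 on the log2 scale, and all 10 excitatory neuron genes and all 8 pan-neuron genes were lower, in each of 6 comparisons by day and area. Astrocyte genes were not alone in this. Over all IP and all input libraries, median sums were 65.4 against 32.6 FPKM for meningeal fibroblast genes and 8.02 against 3.08 FPKM for choroid plexus and ependyma. They were 50.4 against 38.7 FPKM for thalamic neuron genes. Sums were lower in IP for microglia (43.3 against 243 FPKM), oligodendrocytes (102 against 323 FPKM) and endothelial and mural cells (50.7 against 65.2 FPKM).

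In the input, which holds RNA of all cells, 7 of the 10 genes had lower levels in PFC than in VCX on every day, Chrna5 and Fezf2 had higher means in PFC on every day, and Foxp2 changed direction between days. In PBS mice the libraries of the 2 areas did not overlap in 26 of 30 gene and day combinations, 21 of them with VCX higher and 5 with PFC higher. Over all genes tested, 13.8%, 16.3% and 8.09% were called between PFC and VCX in PBS input at days 1, 2 and 14, and since the 10 genes were chosen on this contrast nothing is read from the comparison with that background. The set also divides within itself. Among the genes lower in PFC, the log2 differences of Ntn5, Nr4a2 and Scnn1a lay between -2.75 and -1.85, those of Rorb, Whrn and Rspo1 between -1.65 and -1.13, and those of Cux2 between -0.85 and -0.38. Among the genes higher in PFC, those of Chrna5 lay between 1.57 and 1.99 and those of Fezf2 between 0.19 and 0.45. In bulk tissue, fewer cells of a type and less RNA per cell cannot be told apart.

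Rorb, Scnn1a and Cux2, the genes of layer 4 and the upper layers, were lower in PFC on each day, as were Whrn and Rspo1. Rorb had 7.24, 5.3, 5.62 and 6.28 FPKM in day 1 PBS PFC input, against 18.6, 15.5, 15.5 and 13.1 FPKM in day 1 PBS VCX input. No PFC library reached a VCX library. In the fit the log2 difference was -1.33 ± 0.14 (SE, n = 4 each), a 2.52-fold lower level in PFC, and it was -1.65 at day 2 and -1.46 at day 14. Scnn1a was barely present in PFC, at 0.229, 0.0861, 0.122 and 0.119 FPKM at day 1, against 0.952, 0.713, 0.848 and 0.529 FPKM in VCX. Its log2 differences were -1.85, -2.12 and -1.94 at days 1, 2 and 14, and with a level this near the pseudocount of 0.1 FPKM these values depend on it. Whrn averaged 3.89 ± 0.80 FPKM in PFC and 9.48 ± 0.92 FPKM in VCX at day 1 (SD, n = 4 each), and its log2 difference was -1.27, -1.61 and -1.38 over the days. Rspo1 averaged 2.43 ± 0.70 FPKM in PFC and 5.35 ± 0.73 FPKM in VCX at day 1, with log2 differences of -1.13, -1.38 and -1.15. Cux2, the most abundant of the 10, differed least among these: 23.6 ± 2.01 FPKM in PFC and 33.1 ± 3.76 FPKM in VCX at day 1, with log2 differences of -0.47, -0.85 and -0.38.

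Ntn5 and Nr4a2 were lower in PFC, and Chrna5 was higher. Ntn5 had 1.25, 0.702, 0.551 and 0.612 FPKM in day 1 PBS PFC input, against 6.09, 5.09, 4.57 and 5.52 FPKM in day 1 PBS VCX input. That was a 6.36-fold lower level in PFC, and the log2 difference was -2.67 ± 0.19 (SE, n = 4 each) at day 1, -2.75 at day 2 and -2.59 at day 14. Nr4a2 had 3.2, 2.73, 3.07 and 2.23 FPKM in PFC, against 12.5, 12.2, 10.5 and 16.8 FPKM in VCX at day 1. Its log2 differences were -2.15, -2.02 and -2.44. Nr4a2 belongs to the immediate early genes, and beside it 3, 9 and 3 of 13 immediate early genes were lower in PFC at days 1, 2 and 14 by limma with Benjamini-Hochberg adjustment, and none was higher, where 6.55%, 8.42% and 3.64% of all genes were lower. The part of a general shift of immediate early genes in the Nr4a2 difference was not tested. Chrna5 ran the other way, with 3.32, 3.24, 2.65 and 2.85 FPKM in PFC against 0.745, 0.851, 0.873 and 0.783 FPKM in VCX at day 1. Its log2 difference was 1.78 at day 1, 1.99 at day 2 and 1.57 at day 14.

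Fezf2 and Foxp2 differed less than Chrna5, Ntn5 and Nr4a2. Fezf2 had 20.5, 16.4, 19.3 and 14.3 FPKM in day 1 PBS PFC input, against 12.2, 12.8, 13.6 and 12.8 FPKM in day 1 PBS VCX input. The areas were apart at days 1 and 2, with a log2 difference of 0.45 on both, and overlapped at day 14 with 0.19. Foxp2 differed by -0.22, 0.11 and -0.28 at days 1, 2 and 14, and its libraries overlapped on each day.

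**Figure D1:**
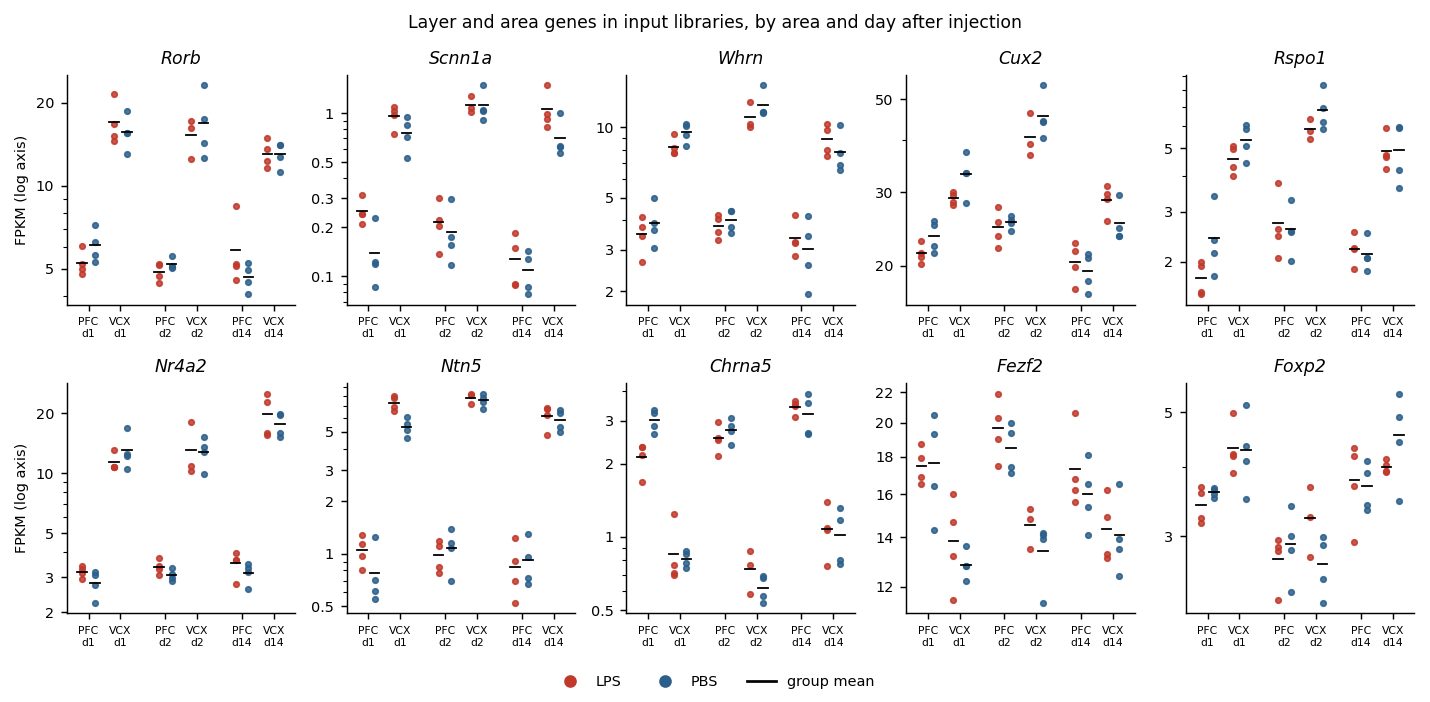
FPKM of the 10 genes in the 47 input libraries on a log axis, 1 point a library, with LPS (red) left of PBS (blue) and PFC left of VCX within each day. The PFC points of Ntn5, Nr4a2, Scnn1a, Rorb, Whrn and Rspo1 lie under the VCX points on every day, those of Chrna5 lie above them, and LPS and PBS points of the same area lie at similar heights.

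LPS mice showed the same arrangement of areas: 27 of 30 gene and day combinations did not overlap in LPS input, 22 with VCX higher and 5 with PFC higher, where 13.8%, 9.58% and 8.77% of all genes were called at days 1, 2 and 14. A call rests on an adjusted p and not on overlap, so nothing is read from setting these counts beside that share. At day 1, Rorb had 4.98, 6.07, 4.79 and 5.21 FPKM in LPS PFC input, against 14.5, 21.5, 16.7 and 15.2 FPKM in LPS VCX input.

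The order of the levels differed between areas. Over the 12 PBS input libraries of PFC the median ran from Cux2 at 23.3 FPKM and Fezf2 at 17.2 FPKM, whose ranges overlapped, over a gap to Rorb at 5.18 FPKM, Whrn at 3.71, Foxp2 at 3.47, Nr4a2 at 3.09, Chrna5 at 2.86 and Rspo1 at 2.26 FPKM, each overlapping its neighbour. Ntn5 at 0.842 FPKM and Scnn1a at 0.125 FPKM stood below these with no overlap. Over the 12 PBS input libraries of VCX, Cux2 was again first, at 33.3 FPKM and apart from the rest. Nr4a2 at 14.3 FPKM, Rorb at 14.2, Fezf2 at 13.6, Whrn at 10.2, Ntn5 at 6.25, Rspo1 at 5.88 and Foxp2 at 3.8 FPKM each overlapped their neighbour. Scnn1a at 0.877 FPKM and Chrna5 at 0.778 FPKM overlapped each other and no gene above them.

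Other genes of the same layers were tested between PFC and VCX, since they were not chosen as members of the set, although the lists were drawn up with earlier results of these data known. Of 320 tests over 6 comparisons (3 days, PBS input and PBS IP), 110 passed an adjusted p of 0.05 in limma with Benjamini-Hochberg adjustment over all genes, 43 of them higher and 67 lower in PFC. Over all genes in PBS input, 7.23%, 7.85% and 4.45% were higher and 6.55%, 8.42% and 3.64% were lower in PFC at days 1, 2 and 14. In PBS IP the shares were smaller, with 4.09%, 4.22% and 2.95% higher and 3.71%, 3.4% and 1.92% lower. In PBS input, 4, 7 and 5 of 12 upper-layer genes were lower in PFC at days 1, 2 and 14 and none was higher. Of 12 genes of layer 4 and of visual layer 5, 7, 7 and 6 were lower in PFC, and 1 was higher at day 1. Layer 5 extratelencephalic genes, of neurons that project out of the cortex, divided, with 4, 5 and 3 of 10 higher and 2 lower in PFC on each day. Of 8 corticothalamic genes of layer 6, 1 was higher on each day, and 0, 1 and 1 were lower. Of 5 near-projecting genes of layers 5 and 6, 1, 4 and 1 were higher in PFC and none was lower. Of 7 genes of layer 6 intratelencephalic neurons and claustrum, 1, 2 and 1 were higher and 2 lower on each day, and of 5 or 6 genes of layer 6b and subplate, 1, 2 and 0 were higher and 1, 0 and 1 lower. The 10 general excitatory neuron genes divided evenly, with 2 higher and 2, 3 and 2 lower, and their median difference was 0.17, -0.16 and 0.08 on the log2 scale, against medians of -0.019, -0.0035 and -0.013 over all genes tested.

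The layer genes that passed on all 3 days include Cux1, the homeobox relative of Cux2, with log2 differences of -0.82, -1.27 and -0.87 in PFC against VCX, and Agmat, which encodes agmatinase, with -1.60, -1.94 and -1.57. In the layer 4 and visual layer 5 list, Endou, an endonuclease gene, had the largest values at -2.98, -3.37 and -3.78, and Ctxn3, a cortexin gene, had -2.08, -1.85 and -2.23. Chrna6, encoding another nicotinic receptor subunit than Chrna5, was lower in PFC by log2 differences of -2.17, -2.19 and -2.65, while Chrna5 was higher. In PBS PFC input, Chrna6 (0.0656 to 0.088 FPKM) and Endou (0.161 to 0.273 FPKM) had means under the filter of 0.5 FPKM on each day. Agmat did at days 1 and 2 (0.346 and 0.427 FPKM). The filter thus favoured their calls as lower in PFC, which the counts of layer genes include, and their log2 differences depend on the pseudocount. Higher in PFC on all 3 days were Crym, which encodes the thyroid hormone binding protein mu-crystallin, at 1.01, 1.52 and 1.17, Syt6, a synaptotagmin gene, at 0.98, 0.76 and 0.72, and Oprk1, the kappa opioid receptor gene, at 1.29, 1.72 and 1.56. Vat1l at 0.53, 0.63 and 0.59 and Lypd1, whose product binds nicotinic receptors, at 0.46, 0.65 and 0.44 were also higher in PFC. Npnt, a gene of the extracellular matrix protein nephronectin, was lower at -0.73, -0.83 and -0.62, as was Col23a1, a collagen gene, at -1.02, -1.17 and -1.0, and Ntng2, the netrin-G2 gene, at -0.45, -0.65 and -0.37.

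Each of the 10 genes had close followers over the 47 input libraries once the day mean was removed, a pattern that the shared areas of the libraries dominate. Among 14211 genes, the highest Pearson r was with Unc5d for Rorb (0.984), Tenm3 for Nr4a2 (0.980) and for Scnn1a (0.952), Cux1 for Whrn (0.971), Sulf1 for Chrna5 (0.969), Rcan2 for Ntn5 (0.968), Mtcl1 for Cux2 (0.954) and Pde8b for Rspo1 (0.946). The r of Fezf2 with its nearest, Gpr123, was 0.886, and that of Foxp2 with Nr3c1 was 0.699, the lowest of the 10. The next genes by r were Thsd7a and Utrn for Rorb, Slc17a6 and Cntnap5a for Nr4a2, Tenm3 and Brinp1 for Ntn5, Epha7 and Cep112 for Chrna5, Tiam1 and Endou for Scnn1a, Camk2n2 and Plxnd1 for Whrn, Plxnd1 and Cux1 for Cux2, Plcxd2 and Brinp1 for Rspo1, Ptpru and Arhgdia for Fezf2, and Cnot6l and Rsbn1l for Foxp2.

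Precipitation of astrocyte ribosomes separated Rorb from the other 9 genes. In PBS mice Rorb was higher in IP than in input in all 6 comparisons of day and area, while the other genes were lower in 47 comparisons, higher in none and not called in 7. The 47 include calls of Scnn1a and Chrna5, which passed the filter on low values only through input libraries. They also include calls of Ntn5 at day 1 and Foxp2 at day 2, for which too few IP libraries reached the filter. The direction of all these calls was favoured by the filter. A total of 53 of 60 comparisons passed limma with Benjamini-Hochberg adjustment, in a contrast where 82.9%, 82.4% and 82.8% of all genes passed in PFC at days 1, 2 and 14 and 83.9%, 82.5% and 82.3% in VCX, so that the share of calls is near the background and the direction and size carry the description.

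Rorb had 46.4, 47.4, 44.9 and 44.9 FPKM in day 1 PBS PFC IP, against 7.24, 5.3, 5.62 and 6.28 FPKM in day 1 PBS PFC input. In VCX it had 59.2, 61.2, 68.1 and 56.3 FPKM in IP, against 18.6, 15.5, 15.5 and 13.1 FPKM in input. Every IP library was above every input library of its area. In log2 terms the difference was 3.46, 3.72 and 3.71 in PFC at days 1, 2 and 14, and 2.58, 2.39 and 2.53 in VCX. These values point the same way as the astrocyte list, whose median was 4.38 to 4.58, and opposite to the excitatory neuron list, whose median lay between -3.4 and -2.9. In these libraries Rorb therefore did not follow the label of an excitatory neuron gene: its direction between IP and input was that of the astrocyte genes.

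The 9 other genes ranged from strong depletion to none. Chrna5 in PFC had the most negative values, at -3.14, -2.85 and -2.90 on days 1, 2 and 14, near those of the excitatory list, and -1.88, -1.75 and -1.90 in VCX, where its input level is low. Low IP levels are pulled towards 0 by the pseudocount, so the order of the genes depends on the settings. Over the other settings run, the day 1 PFC value ran from -3.65 to -1.54 for Chrna5 and from -2.90 to -2.11 for Cux2. Cux2 lay between -2.72 and -2.01, Nr4a2 between -2.67 and -1.72, Ntn5 between -2.62 and -1.79 and Foxp2 between -2.53 and -1.97 over both areas. Whrn differed by -1.22, -1.14 and -1.17 in PFC and by -2.01, -1.88 and -1.75 in VCX. Scnn1a in VCX had -1.09, -1.55 and -1.43, and in PFC, where both fractions lie near 0.1 FPKM, 0.11, 0.33 and -0.08 with no call. No IP library reached the filter of 0.5 FPKM for Scnn1a (highest 0.347 FPKM) or Chrna5 (highest 0.387 FPKM). Both genes entered this fit only through input libraries, Scnn1a only through those of VCX. For Ntn5 at day 1 and Foxp2 at day 2, too few IP libraries reached the filter, so input libraries were needed to pass it. The filter thus favoured calls of Scnn1a and Chrna5, and of Ntn5 and Foxp2 on those days, as lower in IP. No depletion is concluded from those calls.

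Fezf2 and Rspo1 were depleted least. Fezf2 in PFC differed by -0.87, -0.60 and -0.66 on days 1, 2 and 14, each called, and in VCX by -0.02 (adjusted p = 0.906), -0.19 (adjusted p = 0.0898) and -0.49, of which the last was called by limma. In day 1 PBS VCX, Fezf2 had 9.25, 10.7, 7.68 and 6.11 FPKM in IP, against 12.2, 12.8, 13.6 and 12.8 FPKM in input. The FPKM of IP and input do not overlap there although the scaled difference is near 0, because scale factors of 0.77 to 0.87 for IP and 1.18 to 1.29 for input were applied. Without that rescaling the median of all genes moves by -0.60 to -0.52 on the log2 scale, the genes higher in IP become 27.4% to 29.4% of all calls in place of 45.8% to 49.4%, and Rorb stays higher in all 6 comparisons. Fezf2 in VCX at days 1 and 2 and Rspo1 in PFC at days 1 and 14 are then called as lower in IP, and the sign of Scnn1a in PFC turns at days 1 and 2 with no call. Rspo1 in PFC differed by -0.06 (adjusted p = 0.712), -0.47 and -0.01 (adjusted p = 0.966), and in VCX by -0.58, -1.0 and -0.49. The day 2 PFC call of Rspo1 was lost without PBS IP replicate 2 or 4 or without PBS input replicate 4, with an adjusted p of up to 0.0933 in limma.

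**Figure D2:**
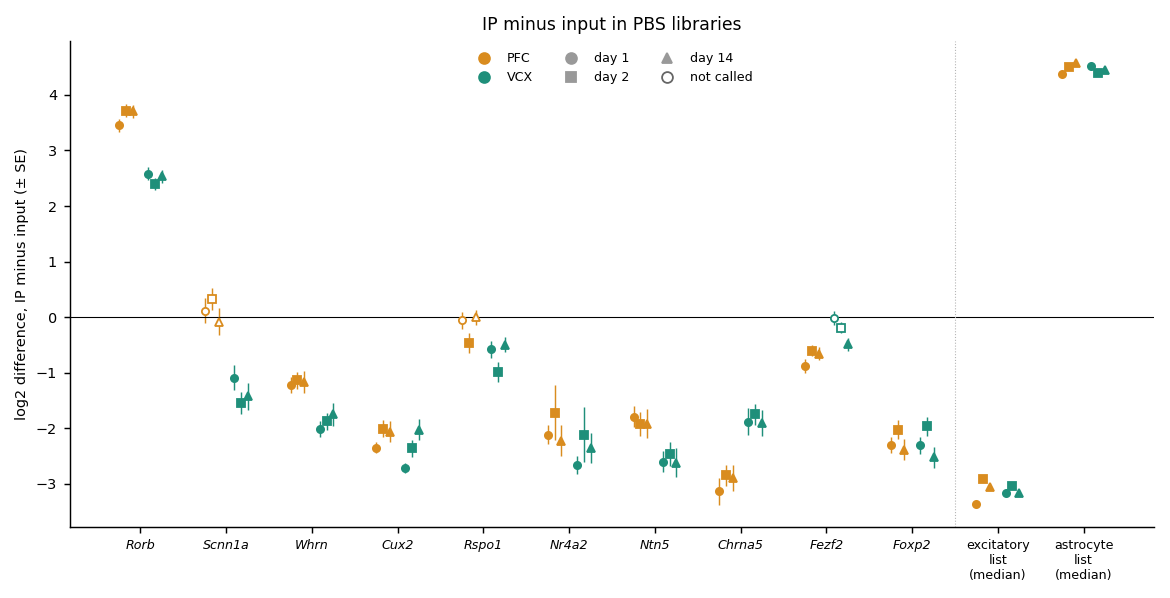
Log2 difference IP minus input in PBS mice with its standard error for each of the 10 genes, PFC in orange and VCX in green, 3 days each, with open symbols where the test was not passed, beside the medians of the excitatory neuron and astrocyte lists. Rorb is the one gene above 0 with all 6 points, at 2.39 to 3.72, and Fezf2, Rspo1 and Scnn1a in PFC lie nearest to 0.

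Excitatory neuron transcripts were still counted in every IP library. The summed level of 10 excitatory neuron genes ran from 42.2 to 140 FPKM over the 47 IP libraries (median 58.8), against 874 to 1590 FPKM over the 47 input libraries. Within day 14 VCX IP, where the sum varied widely, it was 46.7, 54.2, 45 and 136 FPKM in LPS libraries and 99.7, 134, 45.8 and 46.7 FPKM in PBS libraries. Cux2 took 3.11, 4.11, 3.38 and 6.6 FPKM in the same LPS libraries and 5.13, 6.17, 3.2 and 3.12 FPKM in the same PBS libraries, high in each of the 3 libraries with a high excitatory sum. Rorb in them had 52.9, 49.1, 54.4 and 52.5 FPKM in LPS libraries and 50.1, 54.9, 49.4 and 54.8 FPKM in PBS libraries. For Rorb, the same 3 libraries did not stand apart. The part of neuronal RNA in the IP levels of single genes was not tested.

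**Figure D3:**
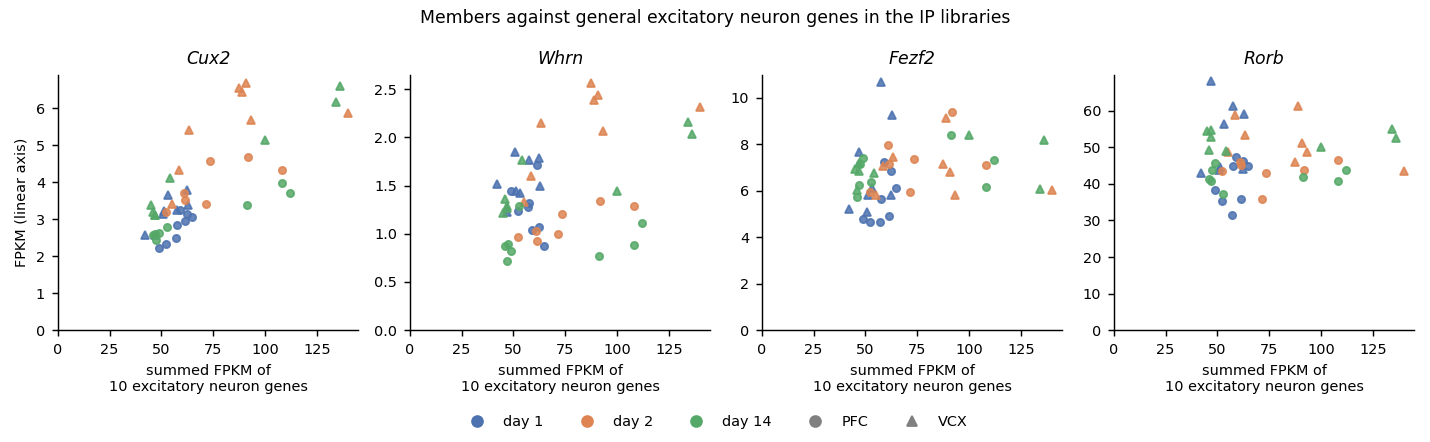
FPKM of Cux2, Whrn, Fezf2 and Rorb in the 47 IP libraries against the summed FPKM of 10 excitatory neuron genes in the same library, which ran from 42.2 to 140 FPKM. Points of Cux2 lie higher in the libraries with a high sum, and those of Rorb lie between 31.5 and 68.1 FPKM.

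The PFC and VCX values in IP are set beside those in input without a test. In PBS IP, 15 of 30 combinations did not overlap, 14 with VCX higher and 1 with PFC higher, and 7.8%, 7.62% and 4.87% of all genes were called at days 1, 2 and 14. The 30 include genes too low to be tested, and overlap is another measure than a call, so nothing is read from the comparison. Rorb differed by -0.43, -0.30 and -0.28 on the log2 scale in IP, against -1.33, -1.65 and -1.46 in input, and stayed without overlap on each day, at 45.9 ± 1.21 FPKM in PFC and 61.2 ± 5.01 FPKM in VCX at day 1 (SD, n = 4 each). Whrn differed by -0.45, -0.84 and -0.78 in IP and Rspo1 by -0.57, -0.81 and -0.64, each nearer to 0 than in input. Cux2 differed by -0.08, -0.47 and -0.41 in IP, against -0.47, -0.85 and -0.38 in input, so that its day 14 value was not nearer to 0. Nr4a2 averaged 0.402 FPKM in PFC IP and 2.3 FPKM in VCX IP at day 14, against 3.16 FPKM in PFC input and 17.6 FPKM in VCX input. Ntn5 averaged 0.0999 FPKM in PFC IP and 0.595 FPKM in VCX IP at day 14, against 0.914 FPKM in PFC input and 5.85 FPKM in VCX input. For both genes the PFC and VCX ratio of these FPKM was similar in IP and in input. Ntn5 at days 2 and 14 and Nr4a2 at days 1 and 14 entered the IP test only through VCX, where they are higher. The log2 differences in IP of Ntn5 (-2.06 and -1.76 at days 2 and 14) and of Nr4a2 (-1.53, -1.57 and -2.25) are pulled towards 0 by the pseudocount. Foxp2 differed by -0.18 and -0.13 in IP at days 1 and 14, with overlap. Fezf2, higher in PFC input at days 1 and 2, had -0.38, 0.06 and 0.02 in IP with overlap on each day. Scnn1a and Chrna5 did not reach 0.5 FPKM in enough IP libraries to be tested on any day, nor did Ntn5 at day 1 and Foxp2 at day 2, so that 6 of the 10 genes were tested on all 3 days in IP. The IP values of the lowest rest on few reads, 2 to 50 a library for Scnn1a and 1 to 54 for Chrna5, against 5779 to 33233 for Rorb. In LPS IP, 14 of 30 combinations did not overlap, 13 with VCX higher and 1 with PFC higher, where 6.93%, 7.4% and 5.7% of all genes were called. As in PBS IP, nothing is read from setting these beside each other.

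**Figure D4:**
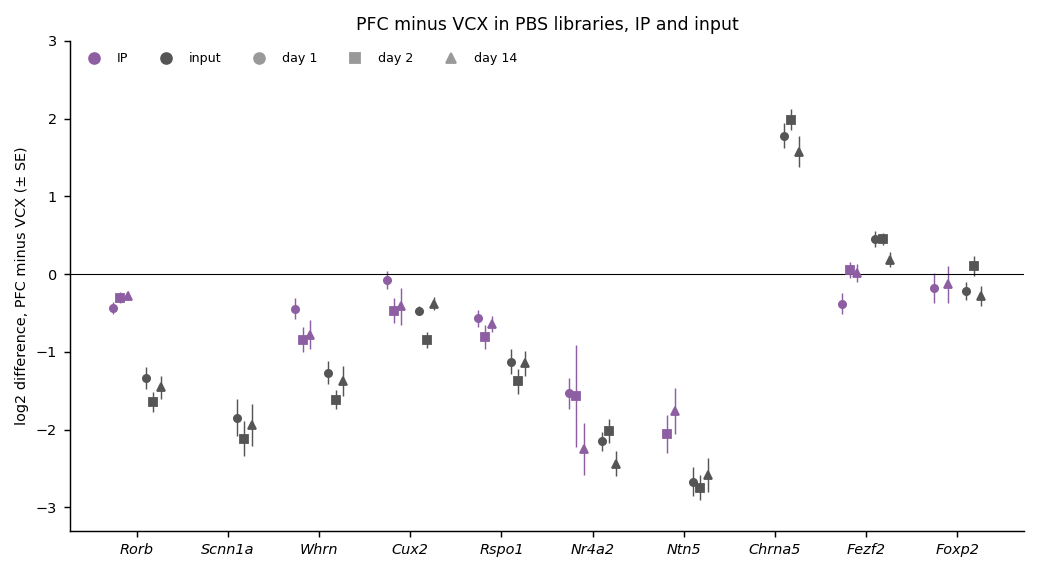
Log2 difference PFC minus VCX in PBS mice with its standard error for each gene, IP in purple and input in grey, with a marker for each day and only the values that could be fitted. Values of Rorb lie at -0.43 to -0.28 in IP and at -1.65 to -1.33 in input, and Chrna5 is the one gene with a large positive difference.

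Calls between LPS and PBS fell on Rorb, Fezf2, Rspo1, Chrna5 and Cux2. Over 13 comparisons of LPS with PBS, 113 tests could be made, 17 could not, and 8 passed limma with Benjamini-Hochberg adjustment, 7 lower and 1 higher in LPS. Of the 8, 7 were calls of day 1 and 6 were in IP. At day 1, 2 of 7 genes tested were lower in PFC IP, where 21.3% of all genes passed and 10.5% were lower. In VCX IP 2 of 7 were lower and 1 was higher, where 21.7% of all genes passed, 9.85% lower and 11.9% higher. In the input 1 of 10 was lower in each area, where 16.2% of all genes passed in PFC (6.96% lower) and 16.9% in VCX (8.05% lower). At day 2, 1 of 7 was lower in VCX IP, where 7.05% of all genes passed and 2.68% were lower, and none was called in PFC IP (7.95% of all genes), PFC input (3.76%) or VCX input (2.13%). With 7 to 10 genes in a comparison, these shares are no result about the set.

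Rorb was lower in LPS IP at day 1 in both areas. It had 35.4, 38.4, 31.5 and 35.8 FPKM in LPS PFC IP, against 46.4, 47.4, 44.9 and 44.9 FPKM in PBS PFC IP. In VCX IP it had 44.6, 42.9, 44.2 and 43.7 FPKM in LPS libraries, against 59.2, 61.2, 68.1 and 56.3 FPKM in PBS libraries. All LPS libraries lay below all PBS libraries of their area. The log2 difference was -0.38 ± 0.08 (SE) in PFC (adjusted p = 0.00188, limma) and -0.48 ± 0.08 in VCX (adjusted p = 0.000259, limma). Both calls were also made when any library of the fit was left out, with an adjusted p of up to 0.0107 in PFC and 0.00142 in VCX. At day 2 Rorb had 43.5, 46.0, 48.8 and 48.8 FPKM in LPS VCX IP, against 53.4, 51.1, 61.3 and 58.9 FPKM in PBS VCX IP, a log2 difference of -0.26 ± 0.07 (adjusted p = 0.0362, limma) that was lost without LPS replicate 1 or 2 or PBS replicate 3 or 4 (adjusted p of up to 0.11). In day 2 PFC IP the 35.8, 43.1 and 43.5 FPKM of the LPS libraries lay under the 46.1, 43.7, 46.5 and 45.2 FPKM of the PBS libraries, with a log2 difference of -0.14 ± 0.08 that did not pass (adjusted p = 0.333, limma). At day 14 the LPS libraries, 37.3 to 43.7 FPKM in PFC and 49.1 to 54.4 FPKM in VCX, overlapped the PBS libraries, 40.8 to 45.7 FPKM in PFC and 49.4 to 54.9 FPKM in VCX. In the input no change of Rorb passed on any day.

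Fezf2 was also lower in day 1 IP. In VCX it had 5.82, 5.2, 5.82 and 5.09 FPKM in LPS libraries, against 9.25, 10.7, 7.68 and 6.11 FPKM in PBS libraries, without overlap. The log2 difference was -0.59 ± 0.13 (SE, adjusted p = 0.00449, limma) and held with any library left out (adjusted p of up to 0.0184). In PFC it had 4.65, 4.77, 4.66 and 4.91 FPKM in LPS libraries, against 6.84, 7.24, 6.1 and 5.64 FPKM in PBS libraries, with a log2 difference of -0.43 ± 0.13 (adjusted p = 0.0322, limma). That call was lost without LPS replicate 1, 3 or 4 or PBS replicate 1, 2 or 3 (adjusted p of up to 0.123). At day 2 the differences of -0.26 in PFC (adjusted p = 0.206) and -0.29 in VCX (adjusted p = 0.127) did not pass in limma. In the input no change of Fezf2 passed.

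Rspo1 was the one gene called higher in LPS. It had 2.82, 3.16, 3.33 and 2.97 FPKM in day 1 LPS VCX IP, against 2.34, 2.67, 1.83 and 2.39 FPKM in day 1 PBS VCX IP, without overlap. Its log2 difference was 0.40 ± 0.11 (SE, adjusted p = 0.0163, limma), and the call was lost without LPS replicate 4 or PBS replicate 3 (adjusted p of up to 0.0574).

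Other cell markers moved in the same day 1 IP libraries. The summed excitatory neuron genes were 52.1, 48.6, 57 and 61.4 FPKM in LPS PFC IP, against 62.1, 58.8, 64.9 and 57.7 FPKM in PBS PFC IP. In VCX IP they were 51, 42.2, 62.1 and 50.8 FPKM in LPS libraries, against 62.7, 57.7, 47 and 53.3 FPKM in PBS libraries, so the groups overlapped in both areas. The summed astrocyte genes were 15300, 15700, 15800 and 15700 FPKM in LPS PFC IP, against 13900, 13800, 13400 and 14200 FPKM in PBS PFC IP. In VCX IP they were 15700, 15700, 15700 and 16400 FPKM in LPS libraries, against 14700, 14900, 13900 and 14400 FPKM in PBS libraries. Rorb and Fezf2 thus ran opposite to the astrocyte sum, which was higher in LPS. Genes of the astrocyte list moved both ways. Gfap rose by 1.63 in PFC and 1.45 in VCX on the log2 scale, and Kcnj10, the inward rectifier potassium channel gene, fell by 0.90 and 0.89. The other genes of that list are not counted here. The part of cell composition of the IP in these changes was not tested.

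**Figure D5:**
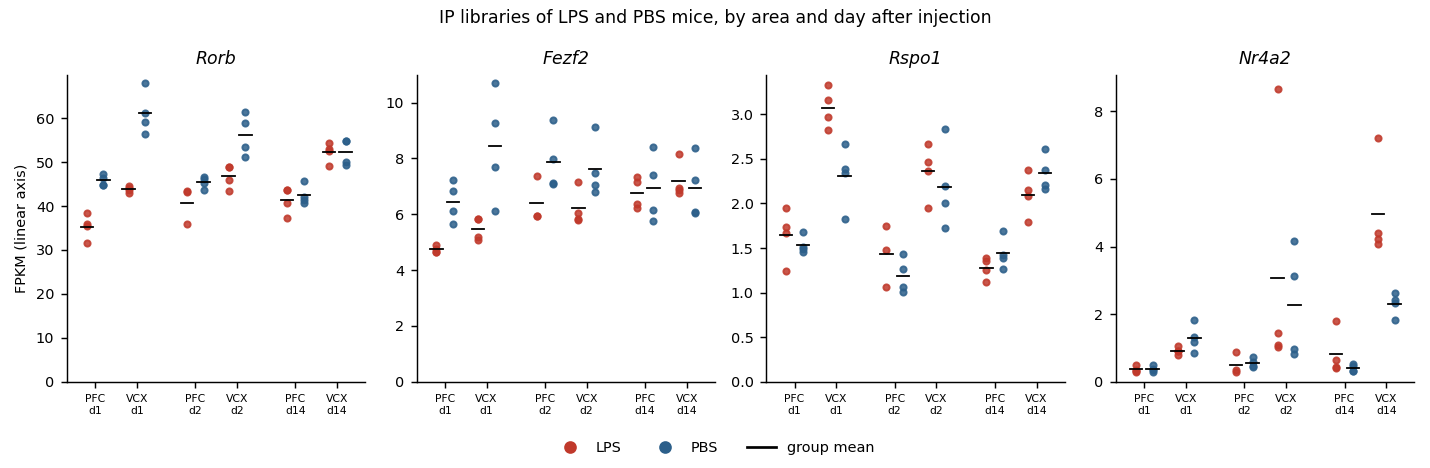
FPKM of Rorb, Fezf2, Rspo1 and Nr4a2 in the IP libraries, LPS (red) left of PBS (blue), by day and area, 1 point a library. At day 1 the LPS points of Rorb and Fezf2 lie below all PBS points of their area, and at day 14 those of Nr4a2 in VCX lie above the PBS points, with 7.2 FPKM as the highest.

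Nr4a2 was variable in IP. At day 14 it had 7.2, 4.22, 4.39 and 4.07 FPKM in LPS VCX IP, against 2.63, 2.32, 2.42 and 1.82 FPKM in PBS VCX IP. The groups did not overlap, but the log2 difference of 1.04 ± 0.34 (SE) did not pass over all genes (adjusted p = 1.0, limma). At day 2, LPS replicate 2 of VCX IP had 8.67 FPKM, while the other LPS libraries had 1.45, 1.03 and 1.1 FPKM and the PBS libraries 3.12, 0.979, 4.16 and 0.823 FPKM. The same library had the highest immediate early sum of its group, 188 FPKM beside 64.3, 70 and 115 FPKM in the other 3. At day 14 the immediate early sum in VCX IP was 71, 111, 52.6 and 90.3 FPKM in LPS libraries and 58.6, 141, 45.5 and 44.8 FPKM in PBS libraries, with overlap.

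In the input, Chrna5 and Cux2 each had 1 call at day 1. Chrna5 had 2.35, 2.17, 2.34 and 1.69 FPKM in LPS PFC input, against 3.32, 3.24, 2.65 and 2.85 FPKM in PBS PFC input, without overlap. Its log2 difference was -0.51 ± 0.16 (SE, adjusted p = 0.0382, limma), lost without LPS replicate 2, 3 or 4 or PBS replicate 1, 2 or 4 (adjusted p of up to 0.129) and also without rescaling (adjusted p = 0.0542). Cux2 had 28.4, 30.1, 27.9 and 29.5 FPKM in LPS VCX input, against 37.4, 28.3, 33.4 and 33.3 FPKM in PBS VCX input. The log2 difference was -0.20 ± 0.06 (adjusted p = 0.0289, limma). The groups overlapped, and the call was lost without LPS replicate 2 or 4 or PBS replicate 1 or 3 (adjusted p of up to 0.109), so it is borderline. Ntn5 had 8.03, 7.83, 6.95 and 6.53 FPKM in LPS VCX input, against 6.09, 5.09, 4.57 and 5.52 FPKM in PBS VCX input. Its log2 difference of 0.44 ± 0.19 did not pass (adjusted p = 0.125, limma) although the groups did not overlap. It was called in 3 alternatives, limma-voom on recovered reads (adjusted p = 0.0123), a pseudocount of 1 FPKM (0.0289) and only the compared groups in the fit (0.0149), while the adjusted p of the others ran from 0.108 to 0.168. No gene of the 10 was called in day 2 input, where none of 20 tests had an unadjusted p under 0.05 and limma-voom also made no call.

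Some of the other layer lists are set beside these input changes. Over all genes in day 1 input, 6.96% were lower and 9.23% higher in LPS in PFC, and 8.05% lower and 8.84% higher in VCX. The lists of layer 4, layer 5 extratelencephalic, near-projecting and layer 6 intratelencephalic genes are not counted here, so no pattern by layer is read. At day 1, 3 of 8 corticothalamic genes were lower in LPS in each area, among them Ntsr1, a neurotensin receptor gene, in VCX by -0.74, and Syt6 in PFC by -0.65. Of 5 genes of layer 6b and subplate, 3 in PFC and 2 in VCX were lower, with Cplx3, a complexin gene, at -0.47 in PFC and -0.49 in VCX and the growth factor gene Ctgf at -0.29 and -0.35. No gene of these 2 lists was higher. The upper-layer list moved both ways, with 3 higher and 2 lower of 12 in PFC and 4 higher in VCX, and 2 of 10 general excitatory neuron genes were lower in each area. Foxp2, a corticothalamic gene as well, had 3.58, 3.67, 3.17 and 3.24 FPKM in day 1 LPS PFC input, against 3.57, 3.63, 3.66 and 3.52 FPKM in PBS PFC input, and was not called.

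By day 14 none of the 10 genes was called in limma: 36 tests gave 2 with an unadjusted p under 0.05, Nr4a2 in VCX IP and Cux2 in VCX input, and limma-voom called none. The same held for all genes at that time, with 0.0% called in each of the 4 comparisons, by limma and by limma-voom, and 172 to 618 genes with an unadjusted p under 0.05. Without day 14 LPS PFC IP replicate 1 or day 14 LPS VCX IP replicate 2, the libraries with a high acute LPS-response sum, the count of LPS calls over all comparisons was 8 as before. In day 1 whole PFC tissue, Rorb had 5.25, 5.54 and 5.08 FPKM in LPS tissue, against 6.03, 5.32, 6.02 and 5.86 FPKM in tissue labelled PBS. Nr4a2 had 7.17, 6.04 and 6.14 FPKM in LPS tissue, against 5.7, 4.05, 4.73 and 4.61 FPKM in tissue labelled PBS, without overlap, and its log2 difference of 0.41 ± 0.12 (SE) did not pass (adjusted p = 0.161, limma). With the library labelled PBS replicate 3 in the fit, 0.027% of all genes were called, and none of the 9 genes tested. Without it 9.83% were called, still none of these genes, and Nr4a2 had a log2 difference of 0.41 (adjusted p = 0.0865).

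Whether LPS acted differently in the 2 areas was tested as an interaction. Of 52 tests, none passed in limma, 2 had an unadjusted p under 0.05 and limma-voom called none. The smallest adjusted p was 0.383, for Chrna5 in day 1 input, where the LPS effect in PFC minus that in VCX was -0.52 ± 0.22 on the log2 scale. The same difference in day 1 IP was 0.10 ± 0.11 for Rorb, 0.16 ± 0.19 for Fezf2 and -0.32 ± 0.16 for Rspo1, so the single-area call of Rspo1 is not shown to differ between areas. Over all genes 0.0% passed in limma in each of the 6 comparisons, with 76 to 1762 genes at an unadjusted p under 0.05, and limma-voom called 1 gene in day 1 input. The sexes were compared over both areas and treatments. Of 52 tests, none passed in limma, 5 had an unadjusted p under 0.05 and limma-voom called none. The log2 differences, male minus female, ran from -0.42 to 0.24, and the smallest adjusted p was 0.147. Over all genes, 2.04%, 9.43% and 0.116% were called between the sexes in IP at days 1, 2 and 14, and 0.0545%, 0.593% and 0.0556% in input.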

How the data were processed

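RNA-seq expression was deposited as one file of FPKM per library, 101 in all, with STAR, HTSeq and mm10 listed, per the submitters' processing notes, and no versions or settings given. The deposited FPKM of each gene were whole multiples of the worth of 1 read (100% of the values of 21330 genes within 0.05 reads), so reads could be recovered; they served for depth, for TMM scale factors and for a limma-voom alternative. Of 24060 entries a file, 4 duplicates with date-like names were dropped. No 2 libraries of a group were identical.

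Groups came from the labels. In the whole-tissue set the titles and column names of PBS replicates 3 and 4 disagree. Their group was taken from the labelled treatment, which the data put in doubt for replicate 3. Log2(FPKM divided by the TMM factor + 0.1) was tested with limma 3.58.1 in R 4.3.3 (trended, robust moderation, all groups of a day in one fit for IP and for input, sex as covariate), with Benjamini-Hochberg adjustment over all genes with at least 0.5 FPKM in as many libraries as the smallest group. A difference is called at an adjusted p under 0.05, and a fold change is on this log2 scale, which understates changes of low genes. The test was checked on simulated data. The comparisons of LPS with PBS, of PFC with VCX in PBS mice and of IP with input share PBS libraries.

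The 10 genes and all gene lists were chosen with earlier results of these data known. Named were all 10 genes, of each layer list up to 2 genes a direction with the largest mean PFC and VCX difference among those called on all 3 days, and for each of the 10 genes the 3 with the highest Pearson r; genes named from the lists beside LPS results were chosen after their values were seen. Alternatives were other pseudocounts, scalings, filters, moderation, groups in the fit, no sex covariate and each library left out.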

Additional observations from a re-analysis of the deposited data

Results flagged for a closer look

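A library was picked out where its gap to the nearest of its group of 4, as a share of the group's range, passed the 95% limit of Dixon's test. That happened in 14 of 230 groups of 4 among the 10 genes, 6.09%, and chance gives about 1 in 20, or 11.5. None of these libraries was left out.

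In IP, Nr4a2 had 3 such libraries: 1.81 FPKM in day 14 LPS PFC replicate 1 (the others 0.416 to 0.632), 7.2 FPKM in day 14 LPS VCX replicate 1 (the others 4.07 to 4.39) and 8.67 FPKM in day 2 LPS VCX replicate 2 (the others 1.03 to 1.45). Day 14 LPS PFC replicate 1 is also the library with a high acute LPS-response sum. Fezf2 had 8.17 FPKM in day 14 LPS VCX replicate 4 (the others 6.76 to 6.94), the LPS library with the high excitatory neuron sum of 136 FPKM, and 7.15 FPKM in day 2 LPS VCX replicate 2 (the others 5.81 to 6.04). Scnn1a had 0.13 FPKM in day 1 PBS PFC replicate 1 (the others 0.0946 to 0.0987), on few reads.

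In input, Rorb had 8.46 FPKM in day 14 LPS PFC replicate 3 (the others 4.57 to 5.19) and 5.58 FPKM in day 2 PBS PFC replicate 4 (the others 5.05 to 5.12). Nr4a2 had 13.1 FPKM in day 1 LPS VCX replicate 2 (the others all 10.7). Chrna5 had 1.24 FPKM in day 1 LPS VCX replicate 4 (the others 0.698 to 0.769), and Scnn1a 1.01 FPKM in day 14 PBS VCX replicate 4 (the others 0.57 to 0.633). Whrn had 15.1 FPKM in day 2 PBS VCX replicate 4 (the others 11.5 to 11.6), and Fezf2 was low at 11.4 FPKM in day 2 PBS VCX replicate 2 (the others 13.9 to 14.2). In whole tissue, Whrn had 6.77 FPKM in PBS replicate 4 (the others 5.62 to 5.8).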

How the results depend on the processing

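No direction of a called value reversed in the settings run. The members' median PFC and VCX log2 difference in PBS input, averaged over days, was -1.32 and became -0.83 with a pseudocount of 1 FPKM, which pulls low levels together. The count of LPS calls, 8, ran from 6 to 9 under other settings and from 7 to 10 over 101 fits that left out a library. The IP and input count, 53, ran from 53 to 57 and from 52 to 54 over 48 such fits, and the count of layer genes called between areas, 110, from 101 to 122 and from 105 to 113 over 94. Interaction and sex gave 0 calls under every setting run. The day 1 IP calls of Rorb in both areas and of Fezf2 in VCX were kept under every setting, and those of Rorb at day 2, Fezf2 in PFC, Rspo1, Chrna5 and Cux2 were each lost when single libraries were left out. Rorb at day 2 and Cux2 were also lost without the sex covariate or with only the compared groups in the fit, Fezf2 in PFC without the filter on low values and Chrna5 without rescaling. Limma-voom called 196 genes higher and 86 lower in whole tissue in place of 4, and 40 higher and 123 lower in place of 87 between the sexes in day 2 input, with none of the 10 among either. Depth limits Scnn1a, Ntn5 and Chrna5 in IP. No paired analysis was possible because the labels give no replicate numbers or animals that groups share.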
